A study of Mus musculus with 36 samples.

Results

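Ddit4, Fkbp5, Sgk1, Mt1, Mt2, Fam107a, Tgm2, Cdkn1a, Errfi1 and Sult1a1 are 10 genes known to be induced by glucocorticoids or by cellular stress, and their mRNA levels were followed in mouse hippocampus. They were picked by symbol out of 24421 gene symbols, with earlier results of these data known, and all 10 were found. The 36 libraries were made from polyadenylated RNA and fall into 6 groups of 6, and a group has 3 female and 3 male libraries. C57BL/6 mice form the aging arm: a young group of 8 months, an old group of 18 months and an old group of 18 months given a nanoligomer, a short synthetic antisense molecule. The transgenic arm holds mice of 4 months: APP/PS1 mice, which carry transgenes that drive amyloid β deposition, APP/PS1 mice given nanoligomer, and their "non-carrier" littermates. The series title names NF-κB and NLRP3, an inflammatory transcription factor and the sensor of an inflammasome, as what was to be downregulated. The promoters of the transgenes, the dose, the duration and any control injection are not given in the labels. Nothing in the labels says whether a library is 1 animal or a pool, so p-values measure only the spread between these libraries.

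Glucocorticoids leave the adrenal cortex after stress and follow a daily rhythm. They bind the glucocorticoid receptor, which moves to the nucleus and acts at glucocorticoid response elements (GREs), and the hippocampus is rich in this receptor and in the mineralocorticoid receptor. Several of the 10 genes feed back on signalling: Fkbp5 encodes a co-chaperone that lowers the hormone affinity of the receptor, Ddit4 an inhibitor of mTOR complex 1, and Errfi1 an inhibitor of the EGF receptor. Sgk1 encodes a kinase that acts on ion channels and transporters. Mt1 and Mt2 encode metallothioneins, small proteins that bind zinc and copper and are also induced by metals through metal response elements (MREs). Fam107a encodes an actin-associated protein, Tgm2 a transglutaminase that crosslinks proteins, Cdkn1a the p21 inhibitor of cyclin-dependent kinases, a target of p53, and Sult1a1 a phenol sulfotransferase.

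One library, female 3 of the APP/PS1 nanoligomer group, held 0.913 M reads, with no read of 6 of the 10 genes, and was left out of all comparisons. The other 35 held 27.6 to 46.3 M reads on the gene table, and the fewest reads of any of the 10 genes in these were 114, for Sult1a1. Levels below are in CPM, reads of a gene scaled to a common library total (counts per M reads). Summed markers of the striatum, a region beside the hippocampus, stood apart in 5 libraries: young male 2, old male 3, old nanoligomer female 3, APP/PS1 female 1 and APP/PS1 nanoligomer male 2. These held 690 to 2597 CPM of 10 striatum markers, against 188 to 439 CPM in the other 30, a division at 600 CPM made after these sums had been seen. Markers of hippocampal neurons were present in every library, at a sum of 774 to 1727 CPM over 12 genes, and none of the 12 was at 0.

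In no comparison did any of the 10 genes pass an adjusted p of 0.05 in limma's test across all genes, which was the main test. The median estimate of the 10 was farthest from 0 in old against young mice, where 9 of 10 were above 0, and nearest in APP/PS1 mice given nanoligomer. Ddit4 was the 1 gene of the 10 whose estimate had an unadjusted p under 0.05 in 3 comparisons. Of these, old against young and old nanoligomer against old share the old libraries. The share of all genes with p under 0.05 in 3 comparisons was not counted. DESeq2, run as an alternative on the recovered reads, called 2 of the 10, Ddit4 lower and Cdkn1a higher in APP/PS1 mice than in littermates. It called 1.54% of all genes there.

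**Figure D1:**
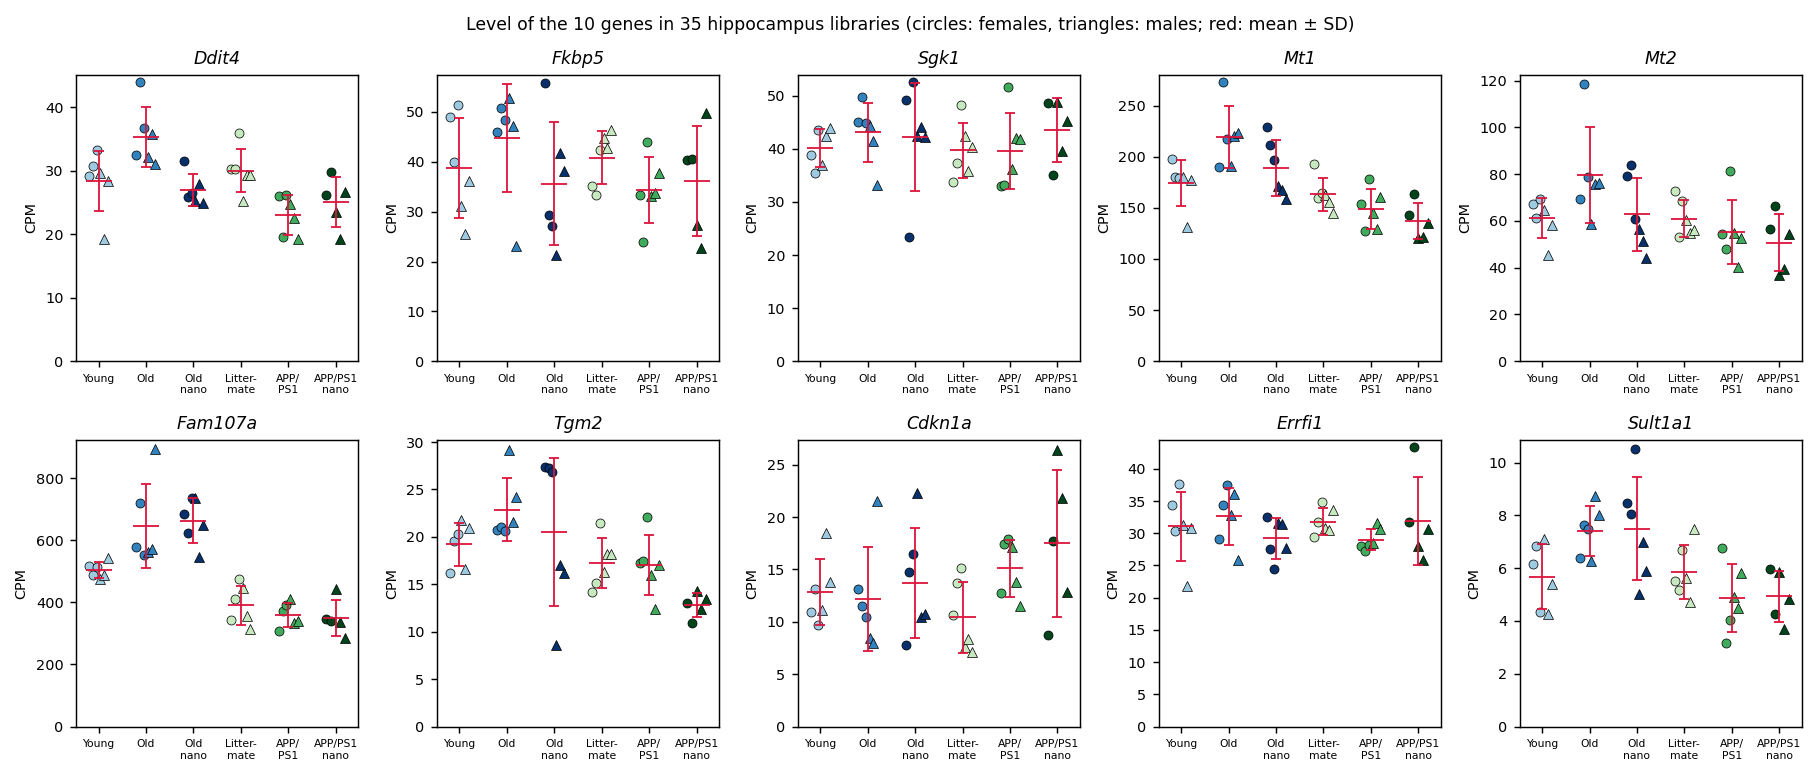
Level of each gene in CPM (y axis, from 0) in the 6 groups (x axis), with 1 point per library (circles females, triangles males) and the mean ± SD in red. The mean of Ddit4 is highest in old mice, whose libraries overlap those of young mice and littermates. Fam107a sits at 476 CPM or above in all libraries of the aging arm and at 475 CPM or below in all of the transgenic arm. The arms also differ in age, and how many of all genes separate them was not counted.

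The most abundant transcripts per length were those of Mt1, Fam107a and Mt2, at 139, 126 and 105 RPKM, which divides CPM by the exon length in kilobases, averaged over the 35 libraries. Ddit4 averaged 16.1, Errfi1 8.63 and Sgk1 8.43 RPKM. Fkbp5, Sult1a1, Tgm2 and Cdkn1a lay close together at 4.06, 4.03, 4.00 and 3.81 RPKM. These lengths are unions of all annotated exons, so a gene with rare long transcripts is understated. Within a group, libraries varied least in Errfi1, Mt1, Fam107a and Ddit4, with mean coefficients of variation of 12.5, 12.8, 13.3 and 13.4%. They varied most in Cdkn1a at 32.4% and Fkbp5 at 24.6%. When the 6 groups were ordered by mean for each gene, the step between neighbours exceeded the larger of the 2 SDs for 5 of 50 neighbouring pairs, so most of the order within a gene lies inside the spread.

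Ddit4 lies on the minus strand at chr10:59949669-59951834 (GRCm38). Its libraries read 29.2, 30.7 and 33.3 CPM in young females and 29.6, 19.3 and 28.3 in young males. In old mice they read 32.5, 43.9 and 36.7 in females and 32.1, 35.8 and 31.0 in males. Young male 2 was the lowest of both groups, and the groups overlapped. Old mice given nanoligomer read 31.6, 25.8 and 26.5 in females and 25.3, 27.9 and 24.9 in males, so that 1 of the 6, female 1, reached into the range of the old libraries. Littermates read 30.2, 30.2 and 35.9 in females and 25.3, 29.3 and 29.3 in males. APP/PS1 mice read 26.1, 19.6 and 26.2 in females and 24.7, 22.5 and 19.3 in males, and only littermate male 1 lay within their range. Ordered by mean, the groups ran from 35.4 ± 4.74 CPM in old mice (SD, n = 6) through littermates (30.0 ± 3.42), young (28.4 ± 4.79), old nanoligomer (27.0 ± 2.49) and APP/PS1 nanoligomer mice (25.1 ± 3.96, n = 5) to 23.1 ± 3.11 in APP/PS1 mice. The step below old mice was the only 1 of the 5 that exceeded the SD.

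On the log2 scale of the normalized count plus 1, Ddit4 was estimated 0.34 ± 0.10 higher in old than in young mice (SE, 95% limits 0.12 to 0.56, adjusted p = 0.535). Old mice given nanoligomer had an estimate of -0.39 ± 0.086 against old mice (limits -0.57 to -0.20, adjusted p = 0.678). These comparisons share the 6 old libraries, so the high old values enter both. In APP/PS1 mice the estimate against littermates was -0.38 ± 0.094 (limits -0.58 to -0.17, adjusted p = 0.210). DESeq2 gave an adjusted p of 0.0313 there, and the adjusted p ran from 0.0313 to 0.546 over 28 alternatives, with estimates of -0.42 to -0.32. APP/PS1 mice given nanoligomer had 0.15 ± 0.11 against APP/PS1 mice, with limits of -0.088 to 0.39 around 0. Leaving out young male 2, or any other library, left the age estimate between 0.26 and 0.39.

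A pair of differences between effects was tested for all genes in joint fits of tables that share no library. The age effect on Ddit4 exceeded the transgene effect by 0.72 ± 0.14 (adjusted p = 0.0745). In that test 7 of 16300 genes passed, 0.0429%, and none of the 10. DESeq2 called this difference for Ddit4 at an adjusted p of 0.00218, and limma called it without old female 1 (adjusted p = 0.0319) or without APP/PS1 female 3 (0.0447). Over all 27 alternatives its adjusted p lay between 0.00218 and 0.183. Of the others, Sult1a1 (0.70 ± 0.23), Mt2 (0.53 ± 0.18), Mt1 (0.47 ± 0.13), Fkbp5 (0.47 ± 0.22), Fam107a (0.46 ± 0.17) and Cdkn1a (-0.70 ± 0.30) had unadjusted p under 0.05 in the limma fit, as did 1922 of all genes. Age also differs between the arms, and strain background, stated here only for the aging arm, may differ. Neither can be told apart from the arm here. The nanoligomer effect on Ddit4 was 0.54 ± 0.14 lower in old than in APP/PS1 mice (adjusted p = 0.918), where 0 of 15990 genes (0%) passed limma's adjusted threshold, 695 had an unadjusted p under 0.05 and DESeq2 called none of the 10.

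**Figure D2:**
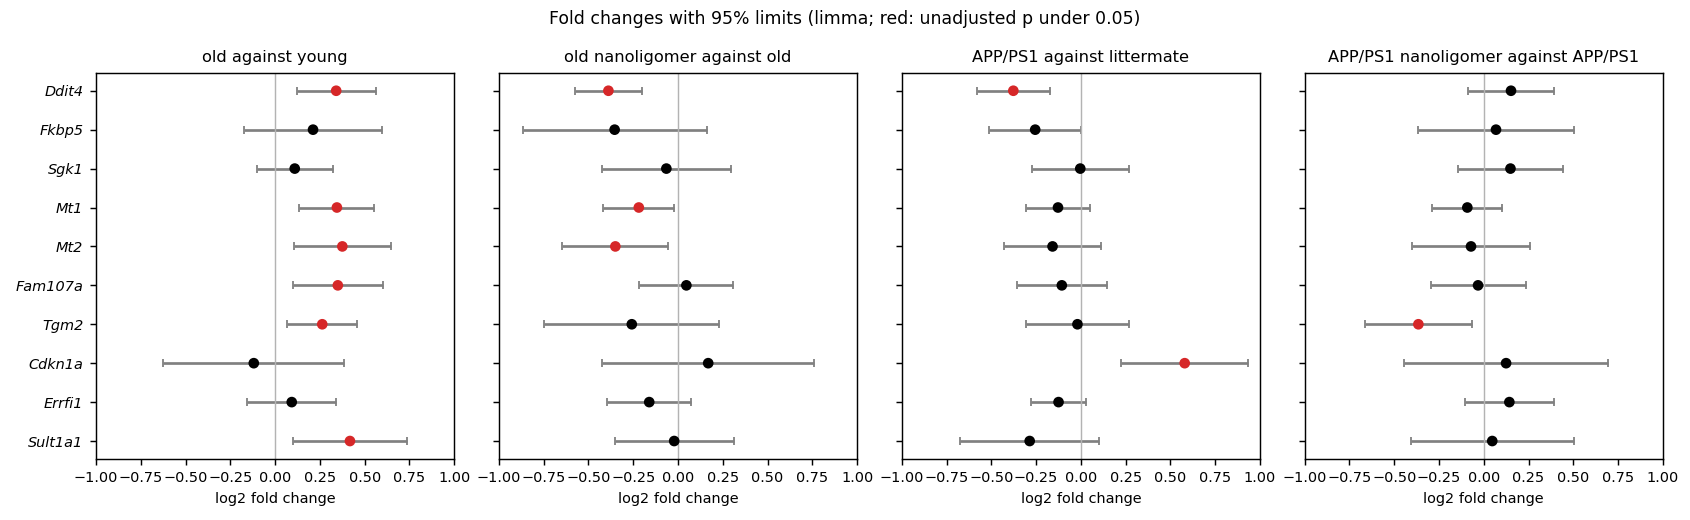
Log2 fold change (x axis) of each gene in the 4 comparisons, with 95% limits from limma and red points where the unadjusted p is under 0.05. Ddit4 is red in 3 panels, above 0 in old mice and below 0 in old mice given nanoligomer and in APP/PS1 mice. The panels of old mice share the untreated old libraries. In old against young mice 6 genes are red, where 3.37% of all genes were higher by that rule.

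In old against young mice the median of the 10 log2 fold changes was 0.30, against a median of -0.004 over 16626 genes tested. Ddit4, Mt1, Mt2, Fam107a, Tgm2 and Sult1a1 were higher at an unadjusted p under 0.05, where 3.37% of all genes were higher and 2.77% lower by that rule. After adjustment 6 of 16626 genes passed, 0.0361%, and none of the 10. DESeq2 called 0.742% of genes and none of the 10. The groups did not overlap for 1 of the 10, Fam107a, and for 0.505% of all genes.

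Mt1 read 198, 180 and 179 CPM in young females and 180, 131 and 177 in young males. In old mice it read 190, 273 and 217 in females and 191, 220 and 224 in males. All but young female 1 lay below the old libraries. The estimate was 0.35 ± 0.097 (adjusted p = 0.467). Mt2 read 67.4, 61.0 and 69.3 in young females and 64.6, 45.6 and 58.4 in young males, against 69.3, 118 and 78.9 in old females and 58.8, 75.8 and 76.1 in old males. Old female 2 was the highest library for both metallothioneins and young male 2 the lowest of these groups. The Mt2 estimate was 0.38 ± 0.12 (adjusted p = 0.654). Without old female 2 or any other single library, the Mt2 estimate lay between 0.28 and 0.44.

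Fam107a, at chr14:8296274-8318023 on the minus strand, read 517, 488 and 515 CPM in young females and 476, 489 and 543 in young males. In old mice it read 580, 720 and 552 in females and 563, 571 and 893 in males. Every old library was above every young library. The estimate was 0.35 ± 0.12 (adjusted p = 0.654). Old male 3, one of the 5 libraries with striatum markers, was the highest, and without the 2 such libraries of this comparison the estimate was 0.25. The same gene averaged 505 ± 24.6 CPM in young mice and 391 ± 62.5 CPM in littermates, groups that differ in both age and arm.

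Tgm2 read 16.2, 19.6 and 20.3 CPM in young females and 21.7, 16.6 and 20.9 in young males, against 20.7, 21.0 and 20.6 in old females and 29.2, 21.5 and 24.2 in old males. Its estimate was 0.26 ± 0.089 (adjusted p = 0.658). Sult1a1 read 6.14, 6.82 and 4.34 in young females and 7.11, 4.26 and 5.39 in young males, against 6.38, 7.64 and 7.48 in old females and 6.28, 8.72 and 8.00 in old males. Its estimate of 0.42 ± 0.15 (adjusted p = 0.665) was the largest of the 10, on the lowest expressed of the genes by CPM, and the groups overlapped.

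Fkbp5, Sgk1, Errfi1 and Cdkn1a had limits that include 0 in old against young mice. Their estimates were 0.21 (limits -0.17 to 0.60), 0.11 (-0.10 to 0.32), 0.093 (-0.16 to 0.34) and -0.12 (-0.62 to 0.39). For Fkbp5, old male 3 read 23.1 CPM where the other 5 old libraries read 46.0 to 52.8. Cdkn1a in that same library read 21.6 CPM, against 8.00 to 13.1 in the other 5.

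Among 26 further glucocorticoid-induced genes, 20 had estimates above 0 in old mice with a median of 0.18, 4 were higher at an unadjusted p under 0.05 and none was lower or passed adjustment in limma. Lcn2, a secreted iron-binding protein of inflammation, had the largest at 3.34 ± 1.04, called by DESeq2 alone (adjusted p = 0.0349). It read a normalized count of 17.7 ± 27.3 in young and 150 ± 213 in old libraries, a spread above the mean. Immediate early genes, which neuronal activity induces fast, were above 0 for 18 of 20 with a median of 0.35, and 1, Gadd45b, had an unadjusted p under 0.05. Of 14 metal and oxidative stress genes 3 were higher by that rule, the third metallothionein Mt3 (0.19 ± 0.078) and the ferritin chains Fth1 (0.30 ± 0.10) and Ftl1 (0.20 ± 0.077). Of 19 p53 targets 1 was higher and 1 lower, and none of 16 corticosteroid receptors and chaperones, 15 hypoxia genes, 15 genes of the integrated stress response, 12 mTOR genes or 13 EGF receptor genes was. Of 14 paralogs 1 was higher (Mt3) and 1 lower (the p57 gene Cdkn1c), and of 16 clock genes 2 were higher and 1 lower, where DESeq2 called Cry1 (-0.35 ± 0.077, adjusted p = 0.0083).

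Cell type markers also had estimates away from 0. All 12 choroid plexus markers had estimates below 0 in old mice (median -1.93, 4 at an unadjusted p under 0.05), with summed levels of 227 to 5874 CPM in young and 218 to 528 in old libraries. All 10 microglia markers had estimates above 0 (median 0.36, 8 by that rule, and Trem2 passed adjustment), with sums of 393 to 444 CPM in young and 474 to 686 in old libraries that did not overlap. All 12 hippocampal neuron markers were above 0 (median 0.26) and all 10 striatum markers below 0 (-0.53), none at p under 0.05. Of 12 astrocyte markers 8 were above 0 (median 0.05), with sums of 5612 to 6897 CPM in young and 6726 to 7421 in old libraries, and the medians of the endothelial, pericyte, oligodendrocyte, meningeal, blood and neocortex markers lay between -0.14 and 0.21. With a choroid plexus score in the fit, none of the 10 genes passed and the Ddit4, Mt1, Mt2, Fam107a, Tgm2 and Sult1a1 estimates kept their sign. In bulk tissue, fewer cells of a type and less RNA per cell cannot be told apart.

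Mt1 and Mt2 lie side by side on the plus strand, Mt2 at chr8:94172664-94173568 and Mt1 at chr8:94179082-94180327, with 5513 bases between them. Their levels followed each other more closely than those of any other pair of the 10, so the windows around their RefSeq starts (GRCm38.p6, plus strand, chr8:94172368-94172667 and chr8:94178839-94179138, each 250 bases before to 50 after the annotated start) are shown. Capitals mark the MRE core, searched as TGCGCNC or TGCACNC on both strands.
Mt2: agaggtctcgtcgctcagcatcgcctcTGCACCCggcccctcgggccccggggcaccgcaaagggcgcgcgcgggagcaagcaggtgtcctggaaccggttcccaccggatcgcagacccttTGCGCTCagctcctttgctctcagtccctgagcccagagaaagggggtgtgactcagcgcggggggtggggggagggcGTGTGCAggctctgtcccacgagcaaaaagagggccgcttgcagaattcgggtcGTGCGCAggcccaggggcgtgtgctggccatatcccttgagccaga
Mt1: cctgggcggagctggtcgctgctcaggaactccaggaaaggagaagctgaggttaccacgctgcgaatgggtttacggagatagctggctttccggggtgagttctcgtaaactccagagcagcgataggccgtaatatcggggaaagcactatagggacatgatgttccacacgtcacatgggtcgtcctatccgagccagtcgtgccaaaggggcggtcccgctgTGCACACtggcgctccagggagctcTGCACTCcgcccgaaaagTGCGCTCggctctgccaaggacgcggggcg
The Mt2 window holds 4 MRE positions and the Mt1 window 3. Of 32851 RefSeq windows of the same length 0.517% hold 4 or more and 1.97% hold 3 or more. The 4 positions of Mt2 are spread from -223 to 4 around the RefSeq start, and the 3 of Mt1 lie between -23 and 20. Bases beyond these windows were not searched, so either gene may hold more. The GENCODE gene starts differ from these RefSeq starts, for Mt2 by 46 bases downstream and for Mt1 by 7 upstream, so that the first Mt2 position lies at -269 from the GENCODE start, beyond a window of 250 bases before it. A match is a description of the letters, not a shown binding site.

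Sgk1 has several RefSeq windows, and 1 of them carries the full palindromic GRE. Of 18 windows found for 9 of the 10 genes, 1 held AGAACA and TGTTCT separated by 3 bases, at -189 of the start of the Sgk1 window chr10:21993640-21993939 (plus strand, GRCm38.p6, RefSeq), where capitals mark it.
Sgk1: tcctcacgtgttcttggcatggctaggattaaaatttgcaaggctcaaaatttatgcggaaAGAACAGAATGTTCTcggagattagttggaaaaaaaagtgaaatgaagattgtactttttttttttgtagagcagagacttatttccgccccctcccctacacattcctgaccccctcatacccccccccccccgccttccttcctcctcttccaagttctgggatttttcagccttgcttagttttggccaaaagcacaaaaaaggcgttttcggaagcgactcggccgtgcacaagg
The RefSeq start of this window lies 111706 bases downstream of the GENCODE gene start, so that the GRE lies 111517 bases downstream of the GENCODE start. The same letters occur in 3 of 32851 windows, 0.00913%. The half-site AGAACA alone, on either strand, occurs in 19.0% of windows and in 6 of the 18, which belong to Sgk1, Fam107a and Sult1a1. No window was found for Tgm2. The 6 group means of Sgk1 ran from 39.6 ± 7.13 CPM in APP/PS1 mice to 43.5 ± 6.01 in APP/PS1 mice given nanoligomer, no step between neighbours exceeded the SD, and its 4 estimates lay between -0.065 and 0.15.

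**Figure D3:**
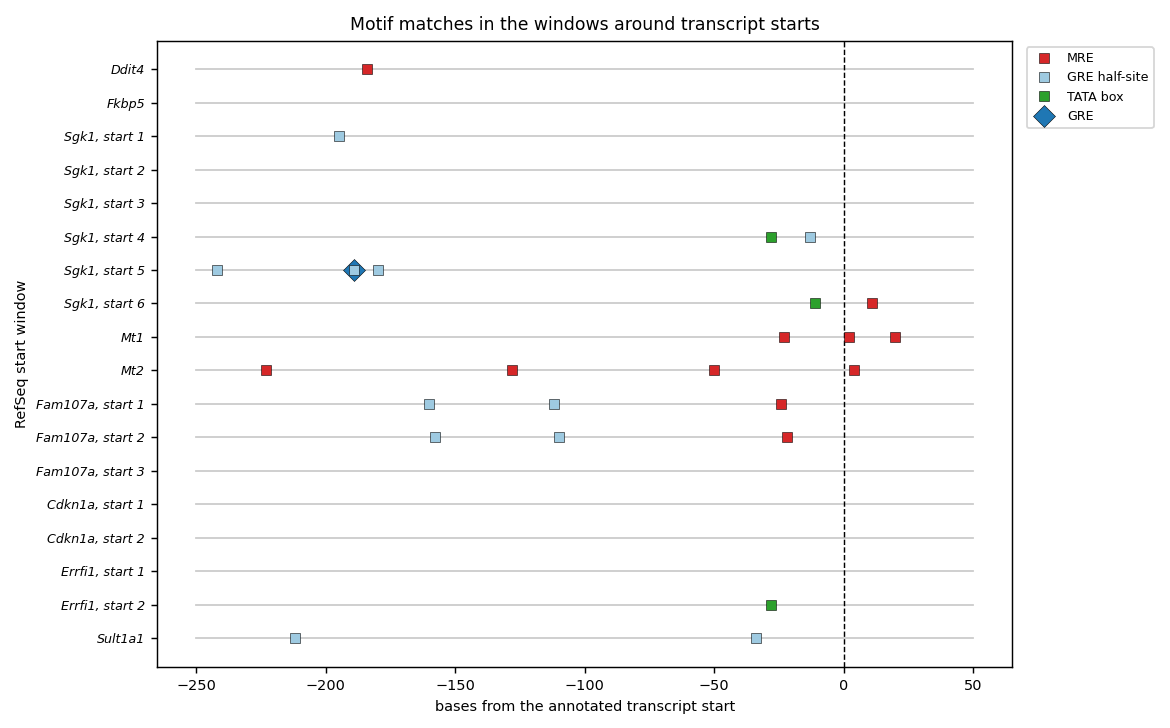
Positions of MRE, GRE, GRE half-site and TATA matches (symbols) in the 18 RefSeq windows (rows) by distance in bases from the annotated transcript start (x axis, dashed line at 0). The full GRE appears in 1 row, a window of Sgk1, and the windows of Mt2 and Mt1 carry 4 and 3 MREs.

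Old mice given nanoligomer had estimates below 0 for 8 of the 10 genes against old mice, with a median of -0.19 against -0.003 over 16517 genes. Ddit4, Mt1 and Mt2 were lower at an unadjusted p under 0.05, where 3.6% of all genes were lower and 3.62% higher. No gene passed the adjusted threshold (0%) in limma or in edgeR, and DESeq2 called 2 genes, 0.0124%, neither of them among the 10. No gene of the 10 had groups that did not overlap, against 0.254% of all genes.

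Mt1 in old mice given nanoligomer read 229, 211 and 197 CPM in females and 172, 168 and 159 in males. The 3 males lay below all 6 old libraries, and the 3 females lay among them. Its estimate was -0.22 ± 0.091 (adjusted p = 0.678). Mt2 read 79.3, 83.8 and 60.9 in females and 56.7, 51.6 and 44.2 in males, and again the 3 males lay below all old libraries. Its estimate was -0.35 ± 0.14 (adjusted p = 0.678). Without single libraries the Mt2 estimate ran from -0.43 to -0.27. The male minus female difference in the log2 estimate was -0.25 for Mt1 (limits -0.64 to 0.13) and -0.22 for Mt2 (limits -0.83 to 0.38). The share of all genes whose 3 treated males lie below all old libraries was not counted, so the separation is a description only.

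The Tgm2 estimates had opposite signs in the sexes, a difference that did not pass adjustment. Females given nanoligomer read 27.4, 27.2 and 26.8 CPM, all above the 3 untreated old females at 20.6 to 21.0. Males given nanoligomer read 8.61, 17.1 and 16.2 CPM, all below the 3 untreated old males at 21.5 to 29.2. The log2 estimate was 0.37 in females and -0.89 in males, a male minus female difference of -1.26 ± 0.30 (limits -1.92 to -0.61, adjusted p = 0.914, DESeq2 adjusted p = 0.132). The sex difference was adjusted over 16517 genes, of which 0 passed (0%) and 778 had an unadjusted p under 0.05. How many of all genes separate 3 treated from 3 untreated libraries within a sex was not counted, so that separation of Tgm2 is a description only. In the 2 sexes together the estimate was -0.26 with limits of -0.75 to 0.23. Sult1a1 had a sex difference of -0.67 ± 0.25 in the same comparison (adjusted p = 0.914), with 8.48, 8.07 and 10.5 CPM in treated females and 5.04, 7.0 and 5.88 in treated males. No sex difference of the 10 passed in the other comparisons either, where 0% of 16626, 16475 and 16124 genes passed.

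The other 5 genes had limits that include 0. Fkbp5 read 21.4 to 55.8 CPM in old mice given nanoligomer, with an estimate of -0.35 (-0.87 to 0.16), and Errfi1 had -0.16 (-0.39 to 0.073). Sgk1 had -0.065, Fam107a 0.047 and Cdkn1a 0.17. Sgk1 in treated female 2 read 23.3 CPM where the other 5 read 42.2 to 52.5, and without that library its estimate was 0.12.

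In the wider lists, 4 of 26 glucocorticoid-induced genes were lower and 1 higher at an unadjusted p under 0.05, with Rhob, a small GTPase, at -0.25 ± 0.080 and the ceramidase Acer2 at 0.48 ± 0.14. Of 15 hypoxia genes 4 were higher, among them the kinase Pdk1 (0.30 ± 0.087) and Mxi1 (0.25 ± 0.10). Of the p53 targets 1 of 19 and of the integrated stress response genes 2 of 15 were lower, Sesn2 being in both lists (-0.28 ± 0.10) and Stc2 in the second (-0.73 ± 0.26). Ddit4l, the paralog of Ddit4, was the 1 of 12 mTOR genes and of 13 paralogs that was higher (0.61 ± 0.23). Of 13 EGF receptor genes 2 were higher, and of 20 immediate early genes and 16 clock genes 1 each, while none of 16 corticosteroid receptors and chaperones and of 14 metal and oxidative stress genes was past it. All 12 hippocampal neuron markers had estimates below 0 (median -0.56, 1 by that rule) and all 10 neocortex markers above 0 (0.50, 3 by that rule), with neocortex sums of 365 to 881 CPM against 247 to 842 in old libraries. Striatum markers had a median of 0.50, choroid plexus 0.16, meningeal -0.43, oligodendrocyte -0.21, microglia -0.12 and astrocyte -0.001, and the others lay between -0.12 and 0.07. With a hippocampal neuron score as covariate the Fkbp5 estimate was 0.078, and with a neocortex score 0.036, whereas Ddit4 and the metallothioneins stayed below 0 with each score. All 10 meningeal markers had estimates below 0, 2 by that rule, with sums of 67.5 to 169 CPM against 144 to 172 in old libraries, and their part in the Ddit4 and Mt2 values was not tested.

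APP/PS1 mice had estimates below 0 against littermates for 9 of the 10 genes, with a median of -0.13 against 0.001 over 16475 genes. Ddit4 was lower and Cdkn1a higher at an unadjusted p under 0.05, where 5.46% of genes were lower and 4.72% higher. In limma 8 genes passed adjustment, 0.0486%, and none of the 10. DESeq2 called 1.54% of genes and 2 of the 10. Groups did not overlap for 0.85% of genes and for none of the 10.

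Cdkn1a, at chr17:29090976-29100727 on the plus strand, read 10.6, 13.7 and 15.1 CPM in littermate females and 7.61, 8.33 and 7.12 in littermate males. In APP/PS1 mice it read 12.8, 17.4 and 17.9 in females and 17.2, 13.8 and 11.5 in males. All 6 APP/PS1 libraries lay above the 3 littermate males, and they overlapped the littermate females. The share of all genes with such a separation was not counted. The estimate was 0.58 ± 0.16 (limits 0.22 to 0.94, adjusted p = 0.242). DESeq2 gave an adjusted p of 0.0490 and limma with library weights 0.0120, and over 28 alternatives the adjusted p ran from 0.0120 to 0.551 with estimates of 0.44 to 0.79. The estimate was 0.26 in females and 0.89 in males, a difference of 0.63 ± 0.29 with limits of -0.0011 to 1.26. Of 18 other p53 targets tested, none was higher at an unadjusted p under 0.05 and 1, Btg2, was lower (-0.87 ± 0.27).

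Fkbp5 had an estimate of -0.26 ± 0.12 (limits -0.51 to 0.001, adjusted p = 0.492). Littermates read 35.2, 33.4 and 42.4 CPM in females and 44.7, 42.7 and 46.5 in males, and APP/PS1 mice 33.4, 23.9 and 43.9 in females and 33.2, 33.8 and 37.8 in males. The 3 APP/PS1 males lay below the 3 littermate males, and the females overlapped. The male minus female difference was -0.13 (limits -0.66 to 0.40), and the share of all genes that separate within males was not counted. With library weights its adjusted p was 0.0477. The metallothioneins, Fam107a, Errfi1, Sult1a1, Sgk1 and Tgm2 had estimates of -0.29 to -0.003 with limits on both sides of 0.

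Among 25 glucocorticoid-induced genes 20 were below 0 with a median of -0.15. Of these 5 were lower and none higher at an unadjusted p under 0.05, including Rasd1, a dexamethasone-induced Ras protein (-0.67 ± 0.15, DESeq2 adjusted p = 0.0097), and the connexin Gjb6 (-0.30 ± 0.10). Immediate early genes were below 0 for 18 of 20 with a median of -0.57: 7 were lower by that rule and DESeq2 called 4, among them Nr4a3 (-1.02 ± 0.26, adjusted p = 0.0171) and Klf2 (-0.74 ± 0.19, adjusted p = 0.0335). Of 16 corticosteroid receptors and chaperones 1 was higher and 2 lower, the mineralocorticoid receptor gene Nr3c2 (-0.72 ± 0.21) and Hsd11b1, which regenerates active corticosterone (-0.66 ± 0.17, DESeq2 adjusted p = 0.0327). The clock gene Per2 was lower (-0.36 ± 0.080, DESeq2 adjusted p = 0.0123) among 3 lower and 1 higher of 16. Of 14 metal and oxidative stress genes Mt3 was lower (-0.25 ± 0.091) and Srxn1 higher. Of 15 hypoxia genes 1 was higher, of 12 mTOR genes, 13 EGF receptor genes and 13 paralogs 1 each was lower, and none of 15 integrated stress response genes was past the rule.

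Regional markers differed as well between APP/PS1 and littermate libraries. Hippocampal neuron markers had estimates below 0 for 11 of 12 (median -0.86, 7 at an unadjusted p under 0.05), with sums of 774 to 1556 CPM against 1315 to 1650. All 10 striatum markers were above 0 (median 1.02, 4 by that rule), with sums of 203 to 2383 CPM against 203 to 237, and neocortex markers had a median of 0.43 with sums of 297 to 943 CPM against 366 to 594. All 12 choroid plexus and all 10 meningeal markers were below 0 (medians -0.83 and -0.90, 5 and 6 by that rule), as were the 5 blood markers (-0.46). Microglia had a median of 0.23, pericytes -0.22, endothelium 0.09, oligodendrocytes 0.03 and astrocytes -0.06. Without APP/PS1 female 1, the library with the most striatum markers, the Ddit4 estimate was -0.39 and that of Cdkn1a 0.70. Fits with choroid plexus, striatum, neocortex and hippocampal neuron scores left Ddit4 between -0.36 and -0.33 and Cdkn1a between 0.44 and 0.79. Meningeal sums were 91.2 to 186 CPM in APP/PS1 and 142 to 332 CPM in littermate libraries, and their part in the Ddit4 value was not tested.

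APP/PS1 mice given nanoligomer had 6 of 10 estimates above 0 against APP/PS1 mice, with a median of 0.058 against -0.002 over 16124 genes. Tgm2 alone had an unadjusted p under 0.05, where 1.51% of genes were lower and 1.45% higher. No gene passed adjustment (0%) in limma or in edgeR, DESeq2 called 0.0436% of genes and none of the 10, and groups did not overlap for 0.31% of genes and none of the 10. Tgm2 read 17.3, 17.5 and 22.1 CPM in APP/PS1 females and 15.9, 12.4 and 17.004 in males. Treated mice read 13.1 and 10.9 in females and 14.3, 12.4 and 13.4 in males, so that 5 of the 6 untreated libraries lay above all treated ones. The estimate was -0.37 ± 0.14 (adjusted p = 0.997). Errfi1 had a sex difference of -0.52 ± 0.18 (adjusted p = 0.924), with 31.8 and 43.4 CPM in the 2 treated females and 27.98, 25.8 and 30.7 in the males. The Ddit4, Sgk1, Errfi1, Cdkn1a, Fkbp5 and Sult1a1 estimates lay between 0.047 and 0.15 and those of Mt1, Mt2 and Fam107a between -0.092 and -0.032.

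Of 25 glucocorticoid-induced genes 20 were above 0 in these mice (median 0.14), but none had an unadjusted p under 0.05. Immediate early genes were above 0 for 18 of 20 (median 0.23), also with none. By that rule 1 of 15 integrated stress response genes was higher, Chac1 (0.47 ± 0.18), 1 of 15 hypoxia genes lower, Slc16a3 (-0.68 ± 0.21), and 1 of 16 clock genes higher, Per2 (0.18 ± 0.083), while the other 6 lists had none. All 12 choroid plexus markers were above 0 (median 2.47, 10 by that rule), with sums of 200 to 5446 CPM against 160 to 287. All 12 astrocyte markers were below 0 (median -0.16), the striatum and neocortex medians were -0.33 and 0.36, and those of the other lists lay between -0.28 and 0.44. With a choroid plexus score in the fit the Fkbp5 and Sult1a1 estimates were -0.076 and -0.21.

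Pairs of the 10 genes were then compared across the 35 libraries, on log2(CPM + 1) centred within group and sex so that no group difference enters. Of 45 pairs 6 passed an adjusted p of 0.05 by permutation within group and sex (100000 permutations, two-sided), for Pearson's r and for Spearman's rho. Mt1 and Mt2 were closest (r = 0.874, rho = 0.843, p = 1e-05 for each, the smallest p the permutations can give, adjusted p = 0.00045). Ddit4 was correlated with Errfi1 (r = 0.672, rho = 0.655, permutation p = 0.00041 and 0.00068, adjusted p = 0.00922 and 0.00945) and with Fkbp5 (r = 0.570, rho = 0.601, permutation p = 0.00089 and 0.00084, adjusted p = 0.0119 and 0.00945). Fkbp5 was also correlated with Errfi1 (r = 0.576, rho = 0.638, permutation p = 0.00188 and 0.00068, adjusted p = 0.0169 and 0.00945), and Fam107a with Cdkn1a (r = 0.648, rho = 0.568, permutation p = 0.00106 and 0.00283, adjusted p = 0.0119 and 0.0212). Fkbp5 and Cdkn1a ran opposite to each other (r = -0.774, rho = -0.718, permutation p = 0.00263 and 0.00162, adjusted p = 0.0197 and 0.0146). Without the 2 libraries farthest from the median of the first gene, the 6 r were 0.851, 0.623, 0.529, 0.496, 0.529 and -0.694 in this order. The median r of the 45 pairs was 0.139.

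**Figure D4:**
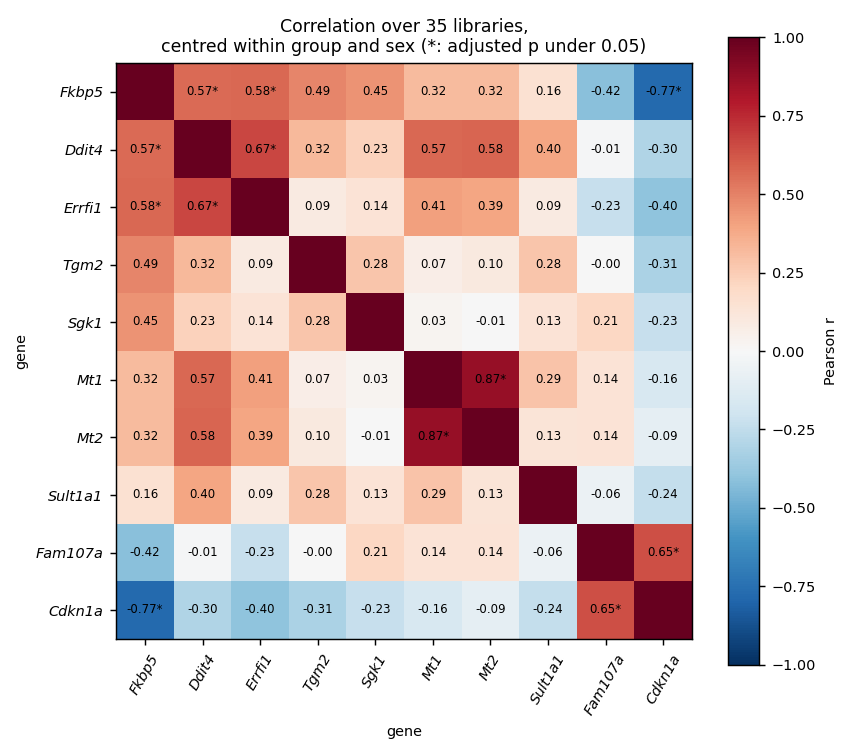
Pearson r between pairs of the 10 genes over 35 libraries, centred within group and sex (colour from -1 to 1, asterisk for an adjusted permutation p under 0.05). Mt1 with Mt2 is the strongest positive cell at 0.87, and Fkbp5 with Cdkn1a the strongest negative one at -0.77.

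The 6 pairs had the same sign within each arm of the study. They were picked over the same 35 libraries, so this is a description and no independent check. Mt1 with Mt2 gave r = 0.896 over the 18 libraries of the aging arm and 0.852 over the 17 of the transgenic arm, and Fkbp5 with Cdkn1a gave -0.956 and -0.422. These levels also moved with regional markers. Of 110 relations of the 10 genes with 11 marker scores, examined after the pairs had been seen, 12 passed for r and 10 for both r and rho. Fkbp5 followed the hippocampal neuron score (r = 0.832, rho = 0.781, permutation p = 0.00112 and 0.00052, adjusted p = 0.0205 and 0.0108) and ran against the neocortex score (r = -0.791, rho = -0.793, permutation p = 0.00025 and 0.00013, adjusted p = 0.0103 and 0.00715). Cdkn1a did the reverse, with r = -0.703 for hippocampal neurons (rho = -0.693, permutation p = 0.00326 and 0.00158, adjusted p = 0.0359 and 0.0217) and 0.71 for neocortex (rho = 0.732, permutation p = 2e-05 for each, adjusted p = 0.0022). Mt2 followed the astrocyte score (r = 0.645, rho = 0.677, permutation p = 0.00047 and 0.00059, adjusted p = 0.0129 and 0.0108). Without the 2 libraries of the most extreme score these 5 r were 0.763, -0.741, -0.593, 0.719 and 0.645. The meningeal fibroblast score was followed by Ddit4 (r = 0.599, rho = 0.606, permutation p = 0.00374 and 0.0015, adjusted p = 0.0374 and 0.0217) and by Mt2 (r = 0.558, rho = 0.579, permutation p = 0.00413 and 0.00196, adjusted p = 0.0379 and 0.024), with r of 0.509 and 0.448 without those libraries. Errfi1 followed the hippocampal neuron score (r = 0.628, rho = 0.595, permutation p = 0.0025 and 0.00357, adjusted p = 0.0306 and 0.0393) and ran against the striatum score (r = -0.571, rho = -0.648, permutation p = 0.00028 and 0.0002, adjusted p = 0.0103 and 0.00733). It also ran against the neocortex score (r = -0.593, rho = -0.631, permutation p = 0.00067 and 0.00046, adjusted p = 0.0147 and 0.0108), and its 3 r were 0.560, -0.628 and -0.596 without those libraries. Ddit4 with neocortex (r = -0.628) and Mt1 with astrocytes (r = 0.645) passed for r (permutation p = 0.00248 and 0.00163, adjusted p = 0.0306 and 0.0256) but not for rho (-0.581 and 0.553, permutation p = 0.00516 and 0.0059, adjusted p = 0.0516 and 0.0541). Within the aging and transgenic arms Fkbp5 gave r = 0.918 and 0.676 with hippocampal neurons, and Cdkn1a gave 0.847 and 0.533 with neocortex. With neocortex Fkbp5 gave -0.778 and -0.829 and Ddit4 -0.597 and -0.663. Except for these neocortex relations of Fkbp5 and Ddit4, each relation given here by arm was nearer 0 in the transgenic arm. Cdkn1a gave -0.864 and -0.407 with hippocampal neurons. Errfi1 gave 0.822 and 0.216 with hippocampal neurons, -0.809 and -0.269 with neocortex and -0.756 and -0.303 with striatum. The astrocyte and meningeal relations were not split by arm.

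After the hippocampal neuron, neocortex and striatum scores were removed by regression, the r of Fkbp5 with Cdkn1a was -0.168, of Fkbp5 with Errfi1 -0.155 and of Ddit4 with Fkbp5 0.163. The r of Ddit4 with Errfi1 was then 0.432 and of Fam107a with Cdkn1a 0.346, while that of Mt1 with Mt2 was 0.830. Pairs that had not passed moved both ways. Sgk1 with Fam107a went from 0.208 to 0.725 and Fkbp5 with Tgm2 from 0.491 to 0.543, while Ddit4 with Mt1 went from 0.572 to 0.350. No r was tested after the regression. These scores were chosen after the pairs had been seen.

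**Figure D5:**
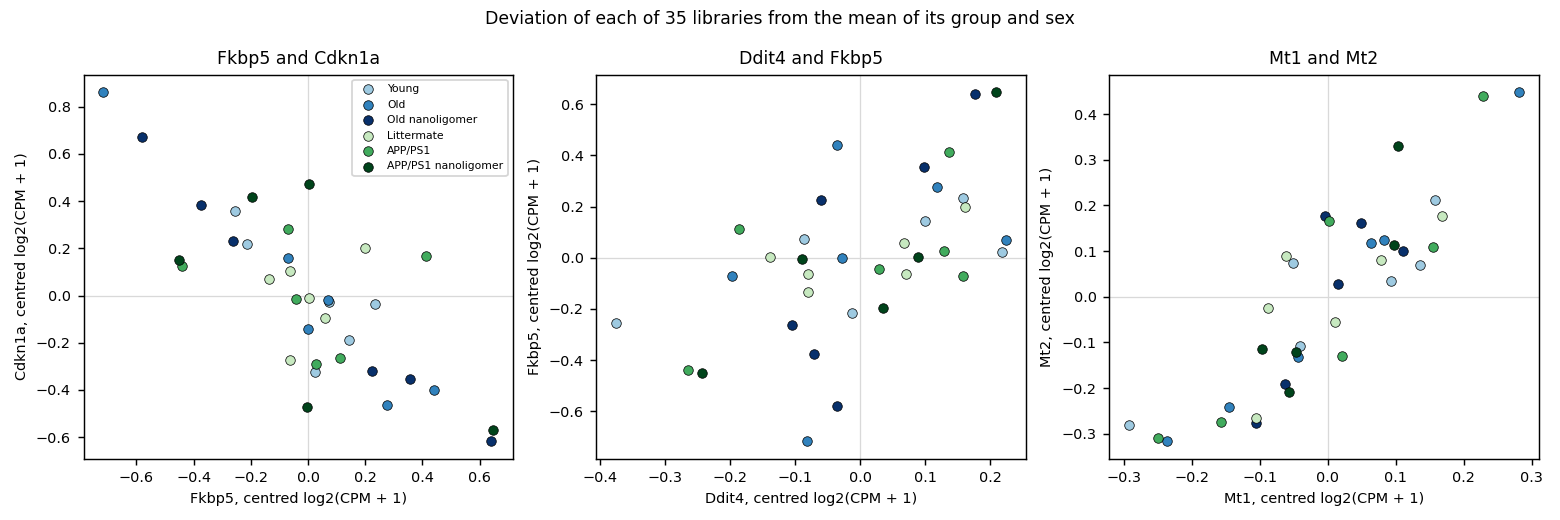
Deviation of each of the 35 libraries from the mean of its group and sex, in centred log2(CPM + 1), for Fkbp5 and Cdkn1a, Ddit4 and Fkbp5, and Mt1 and Mt2, coloured by group. The points fall along a descending line for Fkbp5 and Cdkn1a (r = -0.774) and along an ascending one for Mt1 and Mt2 (r = 0.874).

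Centred levels of 16598 genes were compared with those of each gene. Provisional symbols, such as Gm, Rik, LOC and -ps names, were then passed over. The 3 most alike of the rest are named as a description, since these points share library, depth and dissection. Those of Fkbp5 were Parp8 (r = 0.932), Plxna1 (0.932) and Drd5 (0.931), and those of Cdkn1a were Ints7 (0.872), Pcdh7 (0.855) and Sema3a (0.853). Mt1 was nearest to Mt2 (0.874), Phyhd1 (0.808) and the heparan sulfate proteoglycan Sdc4 (0.783), and Mt2 to Mt1, the astrocyte glutamate transporter Slc1a3 (0.818) and Scamp2 (0.777). Ddit4 was nearest to Sdc4 (0.778), Zxdc (0.776) and Card10 (0.765). The list of Fam107a held Arr3 (0.819), the astrocyte enzyme Aldh1l1 (0.721) and Rgs7 (0.715), and that of Errfi1 held Zcchc5 (0.809), Ppp1r14c (0.807) and the dentate gyrus gene C1ql2 (0.782). Tgm2 was nearest to the laminin chain Lamc1 (0.801), the collagen receptor Ddr2 (0.712) and St6gal1 (0.706). Sgk1 was nearest to Ptafr (0.779), Hipk1 (0.748) and Ly9 (0.748), and Sult1a1 to Apoc1 (0.764), Wnt6 (0.752) and Tspan4 (0.749). No 1 of these 10 lists held another of the 10 genes except those of Mt1 and Mt2.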

How the data were processed

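Gene levels came from 4 tables of 12 libraries each. Per the submitters' processing notes STAR, DESeq2 and mm10 were used; the sources used here give neither their roles and versions nor the read counter. The authors deposited a signal, read counts divided by a size factor within each table. Dividing each library by its common step gave whole reads for 100% of values, within 0.001 reads; 12 libraries stand in 2 tables. No value column was left out (0).

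Each comparison was fitted in its own table with limma 3.58.1 (R 4.3.3) on log2(normalized count + 1), keeping genes whose mean reached 10; terms were sex and group, with Benjamini-Hochberg adjustment over all genes. Fold changes on this scale understate those of low genes. EdgeR 4.0.16 and DESeq2 1.42.0 were run on recovered reads. Tests were tried on simulated data. Coordinates and lengths come from GENCODE on GRCm38 and promoters from RefSeq. All 10 genes are named in every comparison; from each further list up to 4 genes passing, or 2 with the smallest p, were eligible to be named. The members and lists were chosen with earlier results of these data known. The column of APP/PS1 nanoligomer male 3 differs from its title by 1 letter and was matched by its prefix, sex letter and number. Reads were counted without molecular identifiers, and the SEs, limits and p-values of limma rest on the spread between libraries. Reads of overlapping or near-identical genes, such as the metallothioneins, could be split by the counting.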

Additional observations from a re-analysis of the deposited data

Results flagged for a closer look

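In groups of 5 or 6 libraries, 60 sets of values were checked for a lowest or highest library standing apart from its group by Dixon's criterion, and 6 met it; chance gives about 1 in 20. Young male 2 was low for Ddit4 (19.3 CPM, next 28.3) and for Mt1 (131 CPM, next 177), and this library also held striatum markers. Old male 3, another of those libraries, was low for Fkbp5 (23.1 CPM, next 46.0). Old nanoligomer female 2 was low for Sgk1 (23.3 CPM, next 42.2). Old female 2 was high for Mt2 (118 CPM, next 78.9), and APP/PS1 female 3 was high for Mt2 (81.2 CPM, next 55.0).

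Female 3 of the APP/PS1 nanoligomer group, which no comparison used, held 2 of the 10 genes above the highest APP/PS1 library. Sgk1 stood at 193 CPM on 176 reads, against at most 51.6 CPM, and Errfi1 at 73.4 CPM on 67 reads, against at most 31.6 CPM. The library held 0.913 M reads, with none of Ddit4, Fkbp5, Mt1, Mt2, Fam107a or Sult1a1.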

How the results depend on the processing

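Of the 10 genes, 0 were called in every comparison by limma, by edgeR and with the replicate number as a block. Whether numbers pair the libraries was not settled. Same-numbered deviations correlated above 0.1 in 1 of 6, 0 of 6, 1 of 6 and 1 of 5 pairs. The same-numbered library was the best match of its sex in 2 of 6, 1 of 6, 4 of 6 and 3 of 5. With the replicate block, Mt2 in APP/PS1 nanoligomer mice had 0.0073. In APP/PS1 against littermates, DESeq2 called 2 (Ddit4 -0.37, Cdkn1a 0.59) and library weights 2 (Fkbp5 -0.35, Cdkn1a 0.76); for the age and transgene difference DESeq2 called 1 (Ddit4 0.71), and leaving out single libraries, chosen after seeing the data, gave 0 to 1. The cause was not tested.

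Values that changed sign belong to genes not called by limma. Fits with marker scores were chosen after seeing the data, except that with choroid plexus. With a striatum score, Cdkn1a (0.10) and Errfi1 (-0.020) changed sign with age, and Sgk1 (0.16), Fam107a (0.024) and Tgm2 (0.033) in APP/PS1 mice. With a hippocampal neuron score, it was Cdkn1a (0.078) and Errfi1 (-0.0017) with age, Fkbp5 (0.078), Sgk1 (0.055), Fam107a (-0.11), Cdkn1a (-0.30) and Errfi1 (0.0015) in old nanoligomer mice, and Sgk1 (0.32), Mt2 (0.0022), Fam107a (0.026) and Tgm2 (0.11) in APP/PS1 mice. With a neocortex score, it was Fkbp5 (0.036), Sgk1 (0.023), Fam107a (-0.078), Cdkn1a (-0.31) and Sult1a1 (0.010) in old nanoligomer mice, and Sgk1 (0.028) and Tgm2 (0.044) in APP/PS1 mice. Without the 5 libraries of high striatum markers, also chosen after seeing the data, it was Sgk1 (0.065) and Tgm2 (0.0021) in APP/PS1 mice and Cdkn1a (-0.018) in APP/PS1 nanoligomer mice. Sgk1 in APP/PS1 mice had 0.0043 with edgeR and 0.0058 with DESeq2. In APP/PS1 nanoligomer mice, library weights gave Fkbp5 -0.13 and Fam107a 0.016, a choroid plexus score Fkbp5 -0.076 and Sult1a1 -0.21, and the shallow female 3 Ddit4 -1.43, Fkbp5 -1.59, Cdkn1a -0.60 and Sult1a1 -1.12.

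Leaving out single libraries moved Cdkn1a with age from -0.31 to 0.0059, and in old nanoligomer mice Sgk1 from -0.14 to 0.12 and Sult1a1 from -0.10 to 0.069. In APP/PS1 mice it moved Sgk1 from -0.094 to 0.068 and Tgm2 from -0.097 to 0.059. In APP/PS1 nanoligomer mice it moved Fkbp5 from -0.067 to 0.20, Sult1a1 from -0.070 to 0.14, Mt2 from -0.14 to 0.0073, Fam107a from -0.12 to 0.048 and Cdkn1a from -0.032 to 0.38.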
